A study of Homo sapiens with 17 samples.

Results

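AluS elements are the middle-aged branch of the Alu family, the primate short interspersed repeats that make up a large share of human DNA. They were taken here as every repeat row of the count tables whose class and family was SINE/Alu and whose subfamily name began with AluS. This gave 674215 loci in 17 subfamilies, 14.2% of the 4748242 repeat loci in the tables. RNA came from IMR90 ER:RAS cells, an established human lung fibroblast line in which a retroviral vector carries RASG12V as a fusion with the oestrogen receptor, and the oncogene is switched on by 4-hydroxytamoxifen (4OHT). All groups carried this construct and were transfected with siRNA, non-targeting (siNT) or against SMARCA4 (siSMARCA4), which encodes a motor subunit of SWI/SNF chromatin remodellers. The groups were DMSO with siNT (n = 5), 4OHT with siNT (n = 6) and 4OHT with siSMARCA4 (n = 6), all collected on day 7, and no library combined DMSO with siSMARCA4. The comparisons asked how AluS RNA changed when SMARCA4 was depleted in senescent cells, and when RAS was switched on. They share the 4OHT siNT libraries.

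Alu elements descend from the RNA of the signal recognition particle and have a left and a right arm joined by an A-rich linker. RNA polymerase III can transcribe them from an internal promoter with an A and a B box, but most Alu RNA in a cell is carried inside longer transcripts of RNA polymerase II, in introns and in untranslated ends. Neighbouring Alu copies in opposite orientation can fold into double-stranded RNA, which ADAR enzymes edit and which sensors such as MDA5 can bind. These libraries held poly(A)-selected RNA, in which pre-mRNA and long transcripts are seen and short Alu transcripts may be missed.

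The B box was looked for in every AluS locus by its core letters, GTTCGANNC, in the GRCh38 sequence on the strand of the Alu. Across all AluS loci 22.3% held these letters. The share differed sharply between subfamilies, from 0.4% of AluSc, 0.767% of AluSc8, 1.9% of AluSc5 and 2.16% of AluSg7 loci to 33.2% of AluSp loci. No match says only that these letters are absent.

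AluS RNA was spread over many loci. Over all libraries 193357 loci (28.7%) had at least 1 count, 39904 had 10 or more and 4101 had 100 or more, with 2529030 counts in all. This was 17.7% of all repeat counts. In a single library AluS took 99453 to 221415 counts, or 0.199% to 0.392% of the library, on 30270 to 57438 loci. The 100 loci with most counts held 8.56% and the first 1000 held 26% of AluS counts. The elements had a median length of 298 bases, and 76% were 280 to 320 bases long.

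Counts per copy differed with the place of the copy and its orientation to the gene. Introns held 61.1% of AluS loci and 73.4% of AluS counts, exons 3.54% of loci and 11.2% of counts, and 35.4% of loci with 15.5% of counts lay outside genes. Within introns, copies in the orientation of their gene held 8400 counts per 1000 loci over the 17 libraries. Copies in the opposite orientation held 1136 per 1000, so that the ratio per locus was 7.4, and it ran from 5.52 to 9.54 over single libraries. Because read pairs were counted by strand, a copy in the orientation of its gene collected pairs from the strand of the gene's own transcript. The ratio was 6.86 ± 1.31 (SD, n = 5) in DMSO, 7.19 ± 0.652 (n = 6) in 4OHT siNT and 7.87 ± 1.01 (n = 6) in 4OHT siSMARCA4, and the groups overlapped.

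**Figure D1:**
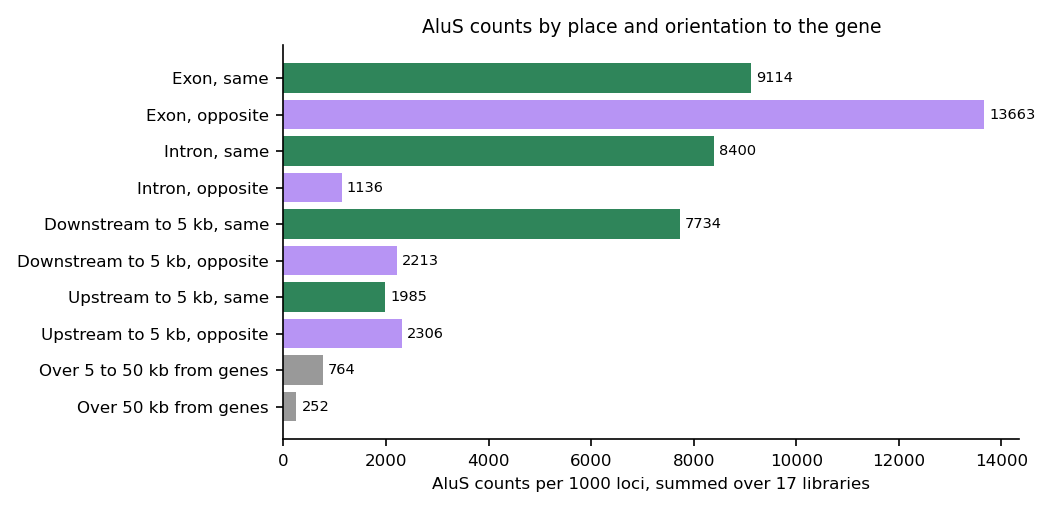
Bars give AluS counts per 1000 loci, summed over the 17 libraries, on a linear axis from 0. Rows give the place of the copies, and same or opposite is the orientation to the gene. Intron copies in the orientation of the gene held 8400 against 1136, and copies downstream of a gene 7734 against 2213.

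Outside genes the same asymmetry was seen just beyond the 3′ end of a gene. Copies within 5000 bases downstream held 7734 counts per 1000 loci in the orientation of the gene and 2213 in the other. Upstream of genes the values were 1985 and 2306. Copies over 50000 bases from a gene held 252 counts per 1000 loci and together made 0.303% of AluS counts. Pooled over libraries, exon copies held 9114 counts per 1000 loci in the orientation of the gene and 13663 in the other, but this order was not the same in every library. Pairs on an exon in the strand of the gene may be counted for the gene, which was not examined. These exon values are therefore not a comparison of AluS RNA between strands.

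SMARCA4 depletion in 4OHT cells raised the summed AluS level. In counts per 1e6 counts of the library (CPM), the 6 siSMARCA4 libraries ran from 2971 to 3924 with a median of 3283, and the 6 siNT libraries from 2266 to 2615 with a median of 2588. The groups did not overlap. The rise was 31.9%, or 0.40 on the log2 scale (3330 ± 337 against 2517 ± 139 CPM; SD, n = 6 each; 2-sided exact permutation test, adjusted p = 0.00866 over 12 sums). The unadjusted p of 0.00216 is the smallest that 6 against 6 libraries can give. In bulk RNA, more cells that transcribe a locus and more RNA per cell cannot be told apart. All 6 siNT libraries carried the tag VM, which the labels leave unexplained, and against the 3 siSMARCA4 libraries with VM the rise was 0.37 (exact permutation test, adjusted p = 0.0571). These 3 libraries held 3356, 3437 and 2971 CPM, above all 6 siNT libraries. The unadjusted p was thus the smallest that 3 against 6 libraries can give.

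Most of the rise lay in introns. Intron copies in the orientation of the gene rose from 1393 ± 112 to 1942 ± 245 CPM, by 0.47 on the log2 scale (exact permutation test, n = 6 each, adjusted p = 0.00866). They ran from 1178 to 1488 CPM with siNT and from 1686 to 2356 CPM with siSMARCA4, without overlap. These copies made up 67.5% of the difference in CPM, and introns as a whole 83.2%. Intron copies in the opposite orientation rose from 244 ± 20.9 to 312 ± 38.3 CPM, by 0.35 (exact permutation test, n = 6 each, adjusted p = 0.013), with some overlap between groups. Copies outside genes, 400 ± 63.6 against 502 ± 64.6 CPM, did not pass (0.33, exact permutation test, n = 6 each, adjusted p = 0.0623).

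Exon copies differed between libraries more than between groups. They lay at 298 ± 101 CPM with siNT and 332 ± 57.8 CPM with siSMARCA4 (log2 difference 0.21; exact permutation test, n = 6 each, adjusted p = 0.714). Exon copies in the opposite orientation to the gene ran from 81.2 to 304 CPM within the 4OHT siNT libraries alone, whereas those in the orientation of the gene stayed between 97 and 109 CPM there.

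**Figure D2:**
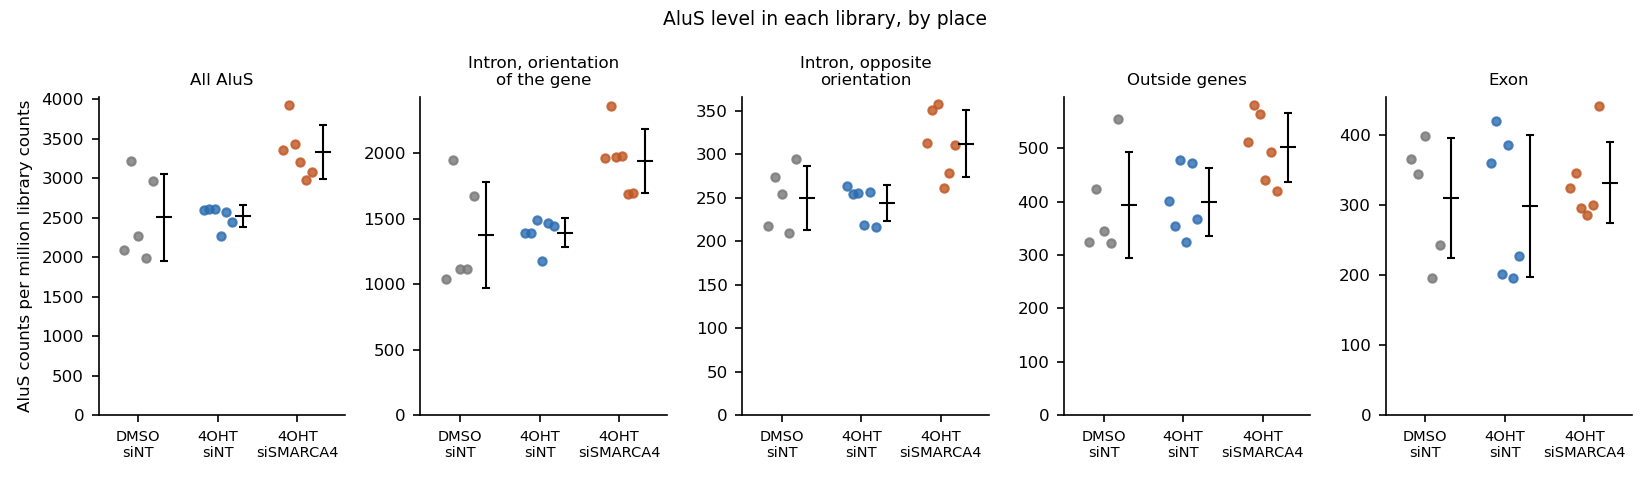
Each point is 1 library, in AluS counts per 1e6 library counts, on axes from 0, and bars give the mean and SD of each group (n = 5, 6 and 6). The siSMARCA4 libraries lie above all 4OHT siNT libraries for all AluS and for intron copies in the orientation of the gene, and for all AluS DMSO library 2-2V lies among them and 4-3VM just below.

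RAS activation alone did not shift the sum detectably. The 5 DMSO libraries held 2089, 3216, 2263, 1990 and 2969 CPM, and their mean of 2505 ± 552 was set beside 2517 ± 139 in 4OHT siNT (log2 difference 0.03, exact permutation test, n = 5 and 6, adjusted p = 0.84). DMSO libraries 2-2V (3216 CPM) and 4-3VM (2969 CPM) were high. The first lay among the siSMARCA4 libraries and the second just below the lowest of them. In these 2 intron copies in the orientation of the gene held 1944 and 1670 CPM against 1040 to 1115 in the other 3, and copies outside genes 423 and 555 CPM against 323 to 344. Intron copies in the opposite orientation (250 ± 36.2 and 244 ± 20.9 CPM) and copies outside genes (394 ± 98.9 and 400 ± 63.6 CPM) also overlapped between DMSO and 4OHT.

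Counts on sparse repeats far from genes moved with the AluS rise. These repeats were of any class but satellites, AluS included, over 50000 bases from a gene and with at most 20 counts in all. They held 55.1 ± 11 CPM in 4OHT siNT and 113 ± 48.1 CPM in siSMARCA4, and every siSMARCA4 library lay above every siNT library. In DMSO they held 75.1 ± 36 CPM. With their log2 level as a covariate, the median fold change of the AluS subfamilies with siSMARCA4 went from 0.37 to 0.06. What produces both was not tested.

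No difference of AluS from the other Alu branches was detected. AluY stood at 508 ± 49.6 CPM with siNT and 694 ± 114 CPM with siSMARCA4, and AluJ at 1111 ± 52.4 and 1474 ± 119 CPM. The log2 ratio of AluS to AluY differed by -0.04 and that of AluS to AluJ by -0.01 between siSMARCA4 and siNT (exact permutation tests, n = 6 each, adjusted p = 0.795 and 0.905 over 6 ratios). Against all repeats that are not Alu the ratio was 0.21 higher, with an unadjusted p of 0.0346 and an adjusted p of 0.208 (exact permutation test, n = 6 each). With 4OHT against DMSO the 3 log2 ratios differed by 0.01, 0.04 and 0.16, none past the threshold (exact permutation tests, n = 5 and 6, adjusted p = 0.905, 0.795 and 0.325).

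The rise was shared by the subfamilies. Fitted together with all genes and repeat subfamilies in edgeR, 13 of 17 AluS subfamilies were called higher with siSMARCA4 at an adjusted p under 0.05 and none lower. Of all 1026 subfamilies tested 20.4% were called. The median fold change was 0.37 over AluS and 0.25 over all repeat subfamilies. In 16 of the 17 the 6 siSMARCA4 libraries lay above all 6 siNT libraries. Of all 1026 repeat subfamilies 12.1% did not overlap between these groups, in either direction. AluSc5, AluSg4, AluSg7 and AluSq4 did not pass, with fold changes of 0.26 to 0.37. With scaling factors taken from repeats in place of genes and repeats, the AluS median was 0.10 and 0 of 17 passed in edgeR (0 at an unadjusted p under 0.05), while the median over all genes moved from -0.02 to -0.29. No other tool was run at that scaling. Left out singly, siNT 4-2VM or siSMARCA4 2-3V brought the count to 3, siNT 4-3VM to 7 and siSMARCA4 2-3VM to 8. It was 0 in edgeR with sparse repeats far from genes as a covariate (0 at an unadjusted p under 0.05), with V or VM as a covariate (15) and in the libraries of siRNA number 2 (17) or 4 (5) alone.

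AluSx, the most counted subfamily with 116902 loci and 18.2% of AluS counts, held 422 to 471 CPM with siNT (median 456) and 541 to 713 CPM with siSMARCA4 (median 597). The DMSO libraries held 389, 593, 421, 387 and 544 CPM. Its fold change was 0.39 ± 0.10 (SE, edgeR adjusted p = 0.0137).

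AluSx1, with 94905 loci, held 327 to 379 CPM with siNT and 421 to 571 CPM with siSMARCA4, and 302, 461, 321, 285 and 412 CPM in DMSO. It rose by 0.35 ± 0.11 (edgeR adjusted p = 0.028). AluSz, with 92290 loci, held 308 to 354 CPM with siNT, 387 to 511 CPM with siSMARCA4 and 281, 445, 298, 269 and 401 CPM in DMSO, and rose by 0.34 ± 0.11 (edgeR adjusted p = 0.036). AluSp, the subfamily with the B box letters in the largest share of copies, went from 206 to 247 CPM with siNT up to 276 to 366 CPM with siSMARCA4, a rise of 0.35 ± 0.11 (edgeR adjusted p = 0.0321). The fold changes of these 3 and AluSx lay between 0.34 and 0.39, and differences between them were not tested. Of 21 alternatives the call held in 16 for AluSx, 11 each for AluSx1 and AluSp and 7 for AluSz.

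AluSx4 had the highest fold change, 0.46 ± 0.12 (SE, edgeR adjusted p = 0.0126), from 45.6 to 57.8 CPM with siNT to 69.5 to 89.7 CPM with siSMARCA4, beside 47.3, 74.4, 51, 42.7 and 68.2 CPM in DMSO. AluSg7 had the lowest, 0.26 ± 0.10 (edgeR adjusted p = 0.0641), with 21.8 to 27.8 and 29.5 to 34.8 CPM, and 20.6, 31, 23.5, 21.2 and 28.9 CPM in DMSO. AluSq10, with 4739 loci, held 13.8 to 16.4 CPM with siNT and 18.2 to 25.2 CPM with siSMARCA4, and rose by 0.43 ± 0.12 (edgeR adjusted p = 0.0219). With 4OHT its fold change was 0.22 ± 0.13 (edgeR adjusted p = 0.284). The other 7 called subfamilies rose with siSMARCA4 by 0.30 (AluSq), 0.37 (AluSc, AluSg, AluSx3 and AluSz6), 0.38 (AluSq2) and 0.45 (AluSc8), with edgeR adjusted p from 0.0179 to 0.0357. Of 21 alternatives the call held in 7 for AluSc8, 10 for AluSx3, 13 for AluSq, 14 each for AluSc, AluSq2, AluSz6 and AluSq10 and 16 each for AluSg and AluSx4. The subfamilies were fitted on the same libraries, so the SEs of AluSx4 and AluSg7, the outermost subfamilies, do not measure the spread of their difference. That difference was not tested. For intron copies alone the log2 difference in mean CPM lay between 0.40 and 0.54 in every subfamily. The groups did not overlap in 16 of 17, the exception being AluSq4, the smallest with 2001 loci. No such share was taken for intron copies of other repeats.

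Copies with and without features tied to Alu function were both higher with siSMARCA4. Summed CPM was higher by 0.37 on the log2 scale for loci with the B box letters and by 0.41 for those without. For loci with an Alu in opposite orientation within 2000 bases the difference was 0.43, and for the others 0.32. Full-length copies of 280 to 320 bases were higher by 0.39 and copies under 200 bases by 0.43. None of these classes overlapped between siNT and siSMARCA4, and their differences from each other were not tested. The 100 loci with most counts were higher by 0.20, with overlap between these groups, and all other AluS loci by 0.42, without overlap.

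**Figure D3:**
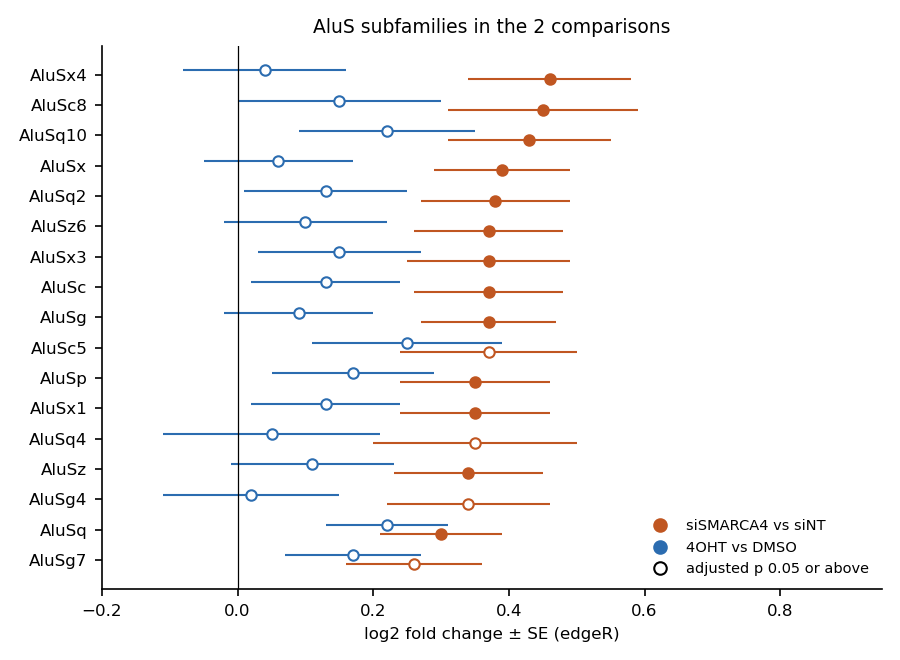
Points give the edgeR log2 fold change of each AluS subfamily and bars its SE, in both comparisons, and filled points passed an adjusted p of 0.05. With siSMARCA4 all 17 lie between 0.26 and 0.46, and with 4OHT all lie between 0.02 and 0.25 with no filled point.

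With 4OHT against DMSO none of the 17 subfamilies was called in edgeR, with 1 at an unadjusted p under 0.05 (AluSq, 0.22 ± 0.09, adjusted p = 0.13), and DESeq2 also called 0. With sparse repeats far from genes as a covariate 10 of 17 were called higher (median 0.26). Of all 1026 subfamilies 16.9% were called. The AluS fold changes ran from 0.02 (AluSg4) to 0.25 (AluSc5). The labels number the siRNA 2 or 4. With siSMARCA4 the AluS fold changes were 0.27 to 0.57 in number 2 and 0.22 to 0.44 in number 4, and all 17 were smaller in number 4, by 0.03 to 0.29. The smallest p of these differences in edgeR was 0.232 unadjusted and 0.976 adjusted.

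At single loci fewer changes could be resolved. Of the 674215 AluS loci, 3029 passed the count filter, and they held 40.2% of AluS counts. With siSMARCA4 130 were called higher and 27 lower in edgeR, 5.18% of those tested, beside 6.16% of all 13026 repeat loci. The median fold change of the AluS loci tested was 0.24, and 0.12 for the other repeat loci. By place, 89 intron loci in the orientation of the gene were higher and 14 lower of 1646 tested. In the opposite orientation the numbers were 8 and 5 of 205, in exons 11 and 1 of 451, and outside genes 13 and 5 of 469. With sparse repeats far from genes as a covariate 2 were called, both lower (307 at an unadjusted p under 0.05). With the libraries of siRNA number 2 alone 20 were called and with number 4 alone 0 in edgeR (363 at an unadjusted p under 0.05). Scaled on repeats, 52 of 119 calls were lower. Leaving out siSMARCA4 2-3V, 2-1VM, 2-3VM or 4-2VM gave 50, 61, 62 and 78 calls, and leaving out siNT 2-1VM, 4-2VM, 4-1VM or 4-3VM gave 56, 71, 82 and 100.

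An AluSz copy lies in an intron of SNX9, a sorting nexin of endocytosis, and held 0 to 8 counts with siNT (median 3), 9 to 38 with siSMARCA4 (median 30) and 0 in all 5 DMSO libraries. It had the largest rise among called loci without overlap in CPM scaled by TMM, 2.68 ± 0.62 (SE, edgeR adjusted p = 0.024). It passed the count filter only through the siSMARCA4 libraries, where it was high, so its rise and p are not free of that choice. It stayed called in 11 of the 16 alternatives in which it was tested, and was tested in 7 of the 12 fits without 1 library. SNX9 itself differed by 0.05 ± 0.07 (edgeR adjusted p = 0.696).

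An AluSp copy in an intron of CCDC200 (chr17:43281036-43281337) held 0 to 5 counts with siNT and 8 to 26 with siSMARCA4, beside 0, 3, 0, 0 and 1 in DMSO, a rise of 2.61 ± 0.61 (edgeR adjusted p = 0.022). An AluSq2 copy in an intron of LOXL2, a lysyl oxidase that crosslinks collagen, held 0 to 5 and 10 to 21 counts, with 3, 5, 4, 8 and 7 in DMSO, and rose by 2.55 ± 0.49 (edgeR adjusted p = 0.00899) while LOXL2 did not pass (-0.14 ± 0.11, adjusted p = 0.388). Another gene overlaps this LOXL2 copy in the opposite orientation. Both copies held only a few counts in each siNT library. They passed the count filter only through the siSMARCA4 libraries, where they were high, so their rises and p are not free of that choice. Each was tested in 7 of the 12 fits without 1 library.

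TXNRD1, the cytosolic thioredoxin reductase, held a run of such copies. Of 34 intronic AluS copies in its orientation 5 were tested and 4 were called higher with siSMARCA4, with a median over the 5 of 1.84. An AluSg copy at chr12:104299488-104299790 held 1 to 8 counts with siNT and 16 to 35 with siSMARCA4, and 1, 17, 3, 3 and 11 in DMSO (2.50 ± 0.50, edgeR adjusted p = 0.0102). Another AluSg copy at chr12:104298444-104298748 held 0 to 5 and 10 to 22 counts, and 1, 15, 4, 3 and 12 in DMSO (2.45 ± 0.61, edgeR adjusted p = 0.0263). Neither of these AluSg copies would have passed the count filter without the siSMARCA4 libraries. TXNRD1 itself rose by 0.74 ± 0.11 (edgeR adjusted p = 0.00016) and was not called with 4OHT (-0.10 ± 0.12, adjusted p = 0.498).

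Of the falls without overlap, the largest was at an AluSq2 copy outside genes, 23169 bases downstream of the pseudogene EEF1A1P47. It held 68, 82, 149, 69 and 104 counts in DMSO, 15 to 67 in 4OHT siNT (median 36.5) and 2 to 19 in siSMARCA4 (median 5.5). With siSMARCA4 it fell by 2.51 (log2, SE 0.43; edgeR adjusted p = 0.00503).

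An AluSx3 copy in ENSG00000289346 (chr7:74867806-74868107) held 9, 9, 12, 12 and 36 counts in DMSO, 52 to 143 in 4OHT siNT and 8 to 58 in siSMARCA4. It thus rose with 4OHT by 2.59 ± 0.43 (edgeR adjusted p = 0.000143) and fell by 1.43 with siSMARCA4 (SE 0.37, adjusted p = 0.0315). An AluSq2 copy in TRIOBP, an actin-binding protein, held 8 to 29 counts with siNT and 2 to 10 with siSMARCA4, and fell by 1.53 (SE 0.37, edgeR adjusted p = 0.0231) while TRIOBP fell by 0.60 (SE 0.07, adjusted p = 2.8e-05). The other 2 were an AluSg copy in BORCS7-ASMT and an AluSq2 copy in ENSG00000273184. The first lies in the opposite orientation to BORCS7-ASMT, so its pairs are not from the strand of that gene's transcript (9 to 40 and 4 to 9 counts, -1.64 ± 0.48, edgeR adjusted p = 0.0465). The second held 12 to 22 and 3 to 11 counts (-1.48 ± 0.37, edgeR adjusted p = 0.0253). The host genes BORCS7-ASMT, ENSG00000273184 and ENSG00000289346 did not pass with siSMARCA4 (-0.00 ± 0.13, 0.08 ± 0.08 and 0.11 ± 0.13, edgeR adjusted p = 0.99, 0.499 and 0.571). With 4OHT ENSG00000289346 fell by 0.57 (SE 0.13, edgeR adjusted p = 0.00118) while its copy rose. In CPM scaled by TMM these 5 copies did not overlap between siNT and siSMARCA4, but in CPM of the library total the AluSx3 copy in ENSG00000289346 did. The copies in BORCS7-ASMT, TRIOBP and ENSG00000273184 passed the count filter mainly through the siNT libraries, where they were high. The calls did not hold throughout. The BORCS7-ASMT copy stayed called in 5 of 22 alternatives, the copies in ENSG00000289346 and ENSG00000273184 in 13 each, the TRIOBP copy in 16 and the copy near EEF1A1P47 in 20.

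**Figure D4:**
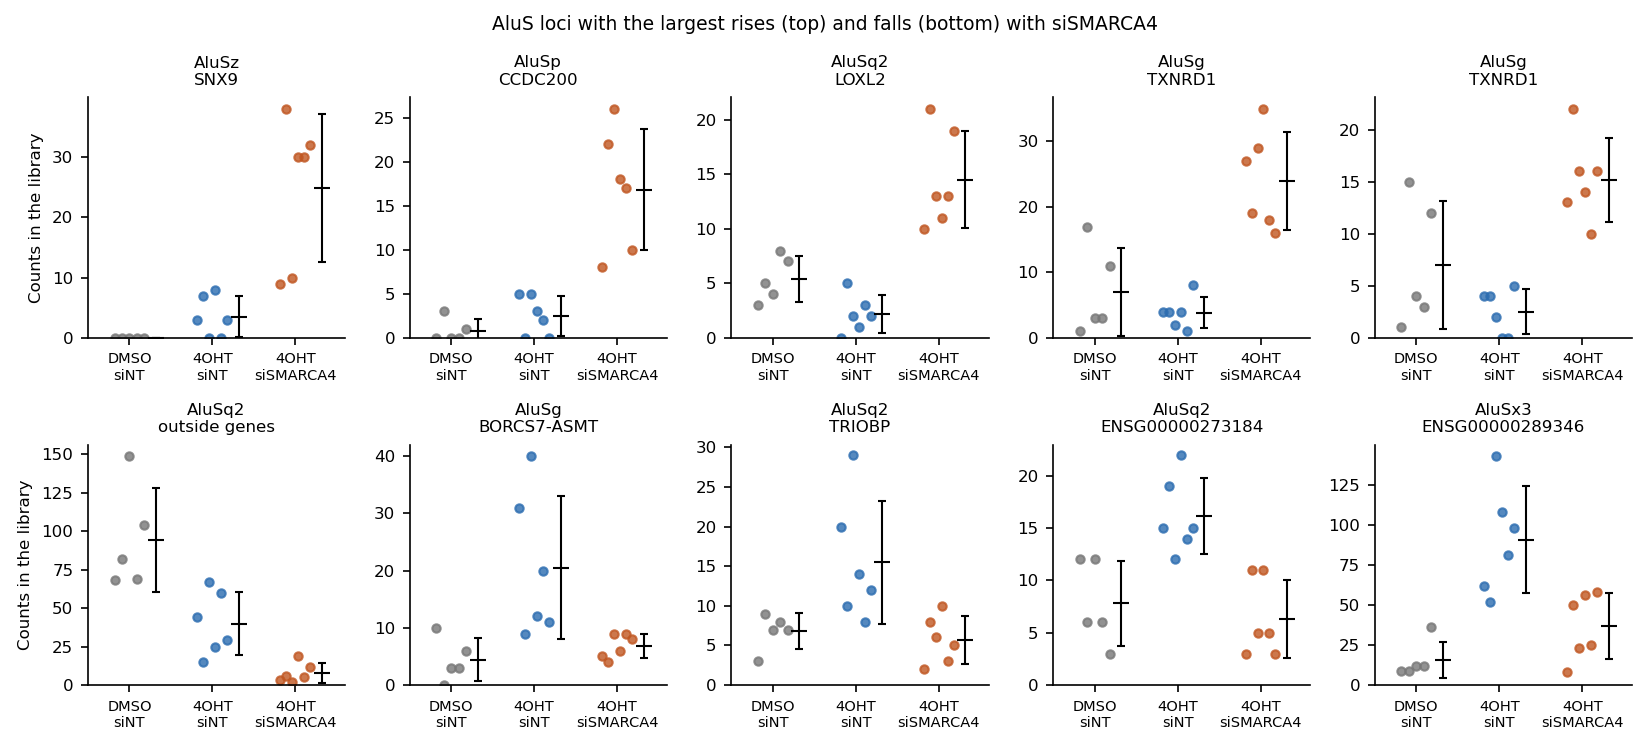
Each panel is 1 AluS locus and each point the counts of 1 library, on axes from 0, with the mean and SD of each group (n = 5, 6 and 6). The upper row shows the 5 largest rises and the lower row the 5 largest falls with siSMARCA4 among called loci that did not overlap in CPM scaled by TMM. Raw counts, as plotted, overlap between siNT and siSMARCA4 for the falls outside genes and in BORCS7-ASMT, TRIOBP and ENSG00000289346.

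With 4OHT against DMSO many more AluS loci were called. In edgeR 513 were higher and 230 lower, 24.5% of the 3029 tested, beside 27.5% of all repeat loci. In introns in the orientation of the gene 292 were higher and 92 lower of 1646, in the opposite orientation 36 and 19 of 205, in exons 35 and 30 of 451, and outside genes 99 and 63 of 469. Loci thus moved both ways, beside a sum that did not pass.

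The 5 largest rises with 4OHT among called loci without overlap were at loci with 0 counts in all 5 DMSO libraries. Only a lower bound can thus be given, set against 3 counts over the DMSO group. These loci passed the count filter only through libraries of 4OHT cells, where they were high. The first, an AluSx1 copy, lies in an intron of SLC16A6, a monocarboxylate transporter family member, where the gene ARSG overlaps on the other strand. It held 13 to 30 counts in 4OHT siNT (median 20.5) and 12 to 50 in siSMARCA4 (median 17.5), at least 35.6-fold above DMSO (edgeR adjusted p = 3.02e-06). SLC16A6 rose by 5.20 ± 0.20 (edgeR adjusted p = 2.49e-13).

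An AluSc8 copy 8114 bases upstream of TRIB1, a pseudokinase, held 12 to 39 counts in 4OHT siNT and was at least 35.1-fold above DMSO (edgeR adjusted p = 1.35e-05). An AluSx3 copy in an intron of BMP2, a ligand of the TGF-beta family (chr20:6774244-6774551), held 10 to 26 counts and was at least 28.5-fold above DMSO (edgeR adjusted p = 6.71e-06). TRIB1 rose by 2.31 ± 0.09 and BMP2 by 6.34 ± 0.16 (edgeR adjusted p = 3.77e-13 and 4.63e-15). The remaining 2, AluSx copies on chromosome 9 outside genes (chr9:100422134-100422440 and chr9:72485258-72485543), held 5 to 26 and 12 to 19 counts in 4OHT siNT, each at least 26.2-fold above DMSO.

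The largest fall of this kind was at an AluSx copy in an intron of ENSG00000285218 that overlaps CLDN11, which encodes a claudin of tight junctions. It held 62, 33, 24, 28 and 48 counts in DMSO and 1 count over the 6 siNT libraries in 4OHT, a ratio of 228 (95% exact interval for counting error 40.4 to 9051). A second AluSx copy in this gene (chr3:170423781-170424044) held 14, 27, 12, 17 and 19 counts in DMSO and 0 to 5 in 4OHT, and fell by 4.00 (log2, SE 0.79; edgeR adjusted p = 0.000711). The host gene fell by 5.11 (SE 0.31, adjusted p = 1.07e-10). An AluSx copy in WNK4, a kinase that controls ion transport, held 12, 22, 27, 12 and 25 counts in DMSO and 0 to 3 in 4OHT, and fell by 4.55 (SE 0.69, edgeR adjusted p = 6.17e-05), with WNK4 down by 3.33 (SE 0.28, adjusted p = 7.93e-09).

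Outside genes, an AluSz copy 958 bases upstream of the pseudogene BLZF2P held 22, 25, 12, 15 and 19 counts in DMSO, 1 count over the 6 4OHT siNT libraries and 1 to 10 with siSMARCA4. Its ratio of DMSO to 4OHT was 109 (95% exact interval for counting error 19 to 4341). Its rise with siSMARCA4 was called (24 against 1 count, ratio 22.8, interval 3.71 to 936, edgeR adjusted p = 0.0112), but the libraries overlapped. An AluSz copy 5693 bases downstream of the pseudogene PGM5P4 held 67, 36, 43, 30 and 67 counts in DMSO and 0 to 5 in 4OHT, and fell by 4.08 (SE 0.47, edgeR adjusted p = 2.62e-06). These 5 copies passed the count filter through the DMSO libraries, where they were high, so counts there were a condition of the test.

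The copies with most counts were mostly intronic, in genes of very different roles. An AluSz6 copy lies in an intron of MERTK, a receptor tyrosine kinase in the uptake of apoptotic cells, in the opposite orientation, and held 6175 counts. It held 59, 71, 83, 160 and 261 counts in DMSO, 358 to 705 in 4OHT siNT and 256 to 745 with siSMARCA4, a rise of 1.89 ± 0.34 with 4OHT (edgeR adjusted p = 0.00029). MERTK itself differed by 0.38 ± 0.27 (adjusted p = 0.253). An AluSq2 copy in ELF2, an ETS family transcription factor, also lies in the opposite orientation and held 5842 counts, from 71 to 470 in DMSO and 239 to 470 in 4OHT (0.73 ± 0.34, edgeR adjusted p = 0.124).

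Other highly counted copies were higher in 4OHT. An AluSx1 copy in TGFBI, a matrix protein induced by TGF-beta (chr5:136050051-136050350), held 38, 13, 42, 32 and 40 counts in DMSO and 382 to 603 in 4OHT, and rose by 3.91 ± 0.25 (edgeR adjusted p = 1.89e-09), whereas TGFBI rose by 1.21 ± 0.11 (adjusted p = 4.76e-08). An AluSz copy in a noncoding exon at MMP1, the gene of a collagenase, held 20, 26, 39, 29 and 48 counts in DMSO and 187 to 376 in 4OHT, and rose by 3.21 ± 0.21 (edgeR adjusted p = 2.33e-09). It rose by a further 0.58 ± 0.17 with siSMARCA4 (adjusted p = 0.0477), to 351 to 647 counts, a call that held in 3 of 22 alternatives. MMP1 itself rose by 3.65 ± 0.16 with 4OHT (edgeR adjusted p = 1.42e-12) and did not pass with siSMARCA4 (0.30 ± 0.13, adjusted p = 0.107). Genes of both orientations meet at this AluSz copy. An AluSc8 copy 1568 bases downstream of RPLP0P2, a ribosomal protein pseudogene, held 12, 4, 8, 10 and 23 counts in DMSO and 284 to 484 in 4OHT, a rise of 5.04 ± 0.25 (edgeR adjusted p = 5.2e-11). RPLP0P2 rose by 5.70 ± 0.20 (edgeR adjusted p = 1.38e-13).

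An AluSx1 copy in PNPLA3, a lipid droplet acyl hydrolase, held 146 to 234 counts with siNT and 194 to 496 with siSMARCA4, and rose by 1.06 ± 0.28 (edgeR adjusted p = 0.0336), a call that held in 9 of 22 alternatives. PNPLA3 rose by 0.38 ± 0.08 (adjusted p = 0.00215), and 4 of its intronic AluS copies were called higher. An AluSp copy in ENSG00000291336 (chr6:26214849-26215143), in the opposite orientation, held 182 to 317 and 310 to 482 counts. This AluSp copy rose by 0.55 ± 0.14 (edgeR adjusted p = 0.0297), which held in 6 of 22. Copies in an exon over RPL39, a ribosomal protein gene, and in PXN, the focal adhesion protein paxillin, did not pass with siSMARCA4 (0.38 ± 0.19 and 0.58 ± 0.21, edgeR adjusted p = 0.245 and 0.0998).

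To set AluS beside its genes, intronic AluS counts in the orientation of the gene were summed per host gene. Of 8770 hosts with 10 or more such counts, 2716 passed the count filter, and 2696 of these had a fold change for the gene itself. With 4OHT against DMSO the median was 0.12 for AluS and 0.11 for the gene, and the values across genes had a Pearson's r of 0.72 and a Spearman's rho of 0.58. With siSMARCA4 the median was 0.49 for AluS and -0.03 for the gene, AluS stood above its gene in 83.4% of hosts, and r was 0.32 and rho 0.23. Genes share libraries and depth and are not replicates, so these correlations are descriptions. The difference of AluS from its gene had a median of 0.52. Hosts near the count filter could pass it through the siSMARCA4 libraries, where intronic AluS was higher. The siSMARCA4 medians and the 83.4% are thus not free of that choice, and its size was not examined. These host sums were not refitted under another scaling or with sparse repeats as a covariate.

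Among hosts that passed the count filter, with the same limit, the AluS median was above 0 in each class with siSMARCA4. Among 419 hosts called lower with siSMARCA4 in edgeR the gene median was -0.38 and the AluS median 0.25. Among 339 hosts called higher the medians were 0.37 and 0.75, and among 1938 hosts not called -0.02 and 0.49. With 4OHT the medians of gene and AluS were 0.52 and 0.52 in 1023 hosts called higher, -0.49 and -0.43 in 548 called lower, and 0.02 and 0.03 in 1125 not called. Of the summed hosts 538 were called higher and 26 lower with siSMARCA4, and 263 and 130 with 4OHT. Of all genes 24.2% and 54.4% were called in these comparisons.

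Single loci were set beside their hosts in the same way. Of the 87 intron loci higher with siSMARCA4 in the orientation of a tested host, 33 had a host called higher, 5 a host called lower and 49 a host not called. With 4OHT it was 222, 12 and 53 of 287. Of the 2696 hosts compared above, 339 were called higher and 419 lower with siSMARCA4, and 1023 and 548 with 4OHT. Loci in 1 gene share its call. Counted with loci whose host was not tested, the 89 loci higher with siSMARCA4 lay in 73 genes. The 292 higher with 4OHT lay in 214. For AluS in the opposite orientation, 206 hosts could be compared, and r was 0.01 with siSMARCA4 and 0.11 with 4OHT.

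**Figure D5:**
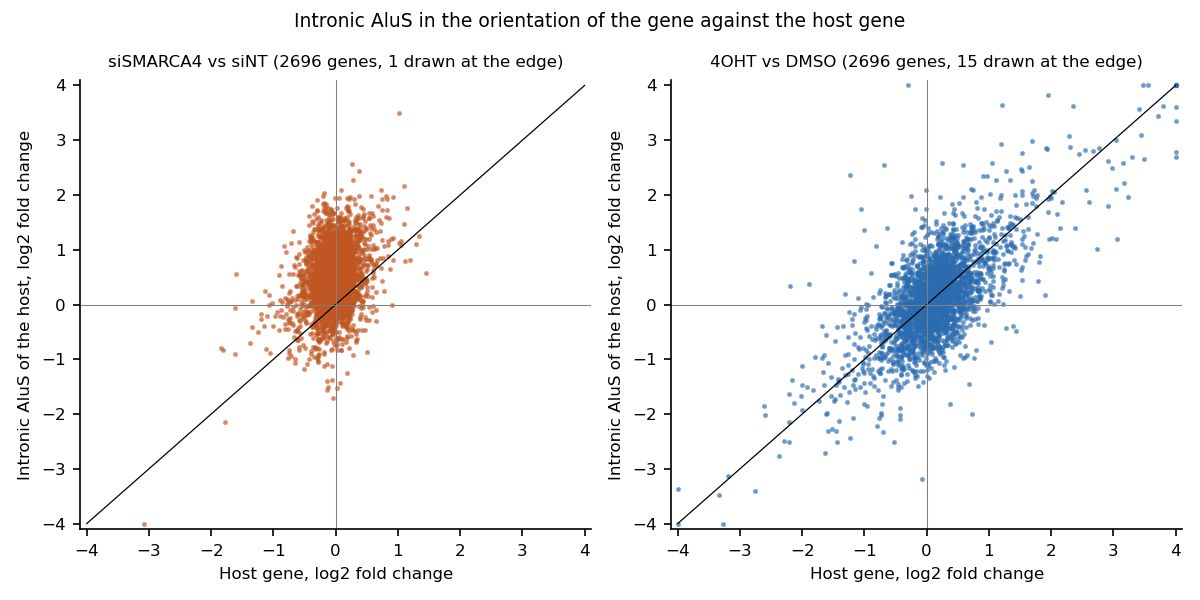
Each point is 1 of 2696 host genes, with the log2 fold change of the gene on the x axis and that of its intronic AluS in the orientation of the gene on the y axis, and the line marks equal change. Points beyond 4 are drawn at the edge. Hosts near the count filter could pass it through the siSMARCA4 libraries, where intronic AluS was higher. With siSMARCA4 the cloud lies above the line (medians -0.03 and 0.49), and with 4OHT along it (medians 0.11 and 0.12).

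Among the 10 hosts with most intronic AluS counts in the orientation of the gene, 3 had a higher AluS sum with 4OHT. In TGFBI the AluS sum rose with 4OHT from 1.01 ± 0.176 to 12.2 ± 2.78 CPM (3.65 ± 0.21, edgeR adjusted p = 1.54e-09). In PLAT, the tissue plasminogen activator, it rose from 1.34 ± 0.274 to 7.23 ± 0.473 CPM (2.50 ± 0.22, adjusted p = 3.2e-07), beside 2.97 ± 0.19 for the gene. In COL6A2, a collagen VI chain, it rose by 1.52 ± 0.27 (edgeR adjusted p = 0.000642) beside 1.13 ± 0.14 for the gene.

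With siSMARCA4, AluS in PNPLA3 went from 7.05 ± 1.05 to 13.8 ± 3.82 CPM (0.92 ± 0.21, edgeR adjusted p = 0.0105) and in ENSG00000284461 from 3.75 ± 0.375 to 7.34 ± 1.05 CPM (0.92 ± 0.16, adjusted p = 0.00718), while the latter gene differed by 0.02 ± 0.07. With 4OHT against DMSO the AluS sum of ENSG00000284461 fell by 0.63 (SE 0.17, edgeR adjusted p = 0.0131). In FN1, fibronectin, the gene fell by 1.03 with siSMARCA4 (SE 0.27, edgeR adjusted p = 0.00969) and its AluS differed by 0.03 ± 0.23 (adjusted p = 0.941). AluS in TGFBI, PLAT and COL6A2 did not pass with siSMARCA4 (-0.35 ± 0.17, -0.36 ± 0.19 and -0.03 ± 0.24, edgeR adjusted p = 0.14, 0.178 and 0.926). The genes themselves differed by -0.40 ± 0.11, -0.81 ± 0.16 and -0.21 ± 0.13 (edgeR adjusted p = 0.0113, 0.00178 and 0.253). AluS in FOSL1, an AP-1 subunit, RRP36, a ribosomal RNA processing factor, and CNN2, a calponin, passed in neither comparison.

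Genes that sense, bind or could transcribe Alu RNA were examined in 3 lists, beside 24.2% of all genes called with siSMARCA4 and 54.4% with 4OHT. With siSMARCA4, of 11 tested genes of double-stranded RNA sensing and editing, RIGI rose by 0.21 ± 0.07 and MAVS, the adaptor of RIGI and MDA5, fell by 0.17 (SE 0.06; edgeR adjusted p = 0.0421 and 0.0469), with a list median of 0.02 beside -0.02 over all genes. Of 16 genes of Alu RNA binding, HNRNPC, which covers Alu-derived splice sites, rose by 0.31 ± 0.09 and the splicing factor U2AF2 fell by 0.26 (SE 0.09; edgeR adjusted p = 0.0181 and 0.0319; list median 0.01). Of 24 genes of RNA polymerase III and its factors, the subunit POLR3GL fell by 0.54 (SE 0.15) and GTF3C1 by 0.25 (SE 0.08; edgeR adjusted p = 0.0139 and 0.0236), and none rose (list median -0.09).

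With 4OHT members of each list were called in both directions. In the sensing list 2 rose and 4 fell of 11, with a median of -0.31 beside 0.00 over all genes, and those that fell include TLR3 (fell by 3.97, SE 0.52) and OAS3 (fell by 2.11, SE 0.33; edgeR adjusted p = 2.71e-06 and 2.77e-05). In the binding list 4 rose and 2 fell of 16, among them U2AF2 (0.31 ± 0.09) and the helicase DHX9 (fell by 0.28, SE 0.06), with a median of -0.00. In the RNA polymerase III list 8 rose and 4 fell of 24, led by POLR3G (fell by 1.33, SE 0.17), POLR3A, the largest subunit (0.85 ± 0.07), and GTF3A (fell by 0.72, SE 0.07), with a median of 0.16.

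SMARCA4, the targeted gene, was lower in the libraries labelled siSMARCA4. It stood at 268 ± 13.2 CPM in 4OHT siNT, 88 ± 22.8 in siSMARCA4 and 198 ± 19.2 in DMSO (scaled by TMM), and fell by 1.61 with siSMARCA4 (SE 0.13, edgeR adjusted p = 5.14e-07). Total counts ran from 39.1 to 69 M (1e6) per library. The 9 fibroblast markers were present, with a summed level of 24263 to 29247 CPM in DMSO, 13169 to 16702 in 4OHT siNT and 7550 to 10755 in siSMARCA4. Of the leukocyte markers, PTPRC lay at 0 to 0.129 CPM and CD68, a lysosomal protein, at 20.3 to 30.2 CPM. Epithelial markers summed to 32.7 to 49.9 CPM in DMSO, nearly all KRT19, and to 0.541 to 2.58 CPM in 4OHT, and endothelial markers to 0.855 to 5.63 CPM, and KRT5 was at 0 throughout.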

How the data were processed

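Poly(A)-selected, directional, paired-end RNA libraries of 1 cell line were grouped by GEO's labels. The labels do not say whether libraries came from separate cultures, so p-values measure the spread between these libraries, which may be technical. The authors deposited expected counts per gene and repeat locus, written as whole numbers: reads were trimmed with cutadapt 4.7 and aligned with HISAT2 2.2.1 to GRCh38, and TElocal counted them by strand, sharing pairs that align to several places among these by maximum likelihood. Counts of near-identical copies are therefore estimates. Members and gene lists were chosen with earlier results of these data known.

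Place, host gene and distance came from GENCODE 44 with bedtools 2.31.1. Genes had been counted with an earlier Ensembl annotation, so some exons may differ. A locus overlapping an exon was called exon, otherwise intron or outside genes. The tables give no strand for repeats, so orientation was read from the GRCh38 sequence by 9-base words, which was right for 100% of 20000 held-out loci. These were, as in training, AluS copies of 280 to 320 bases with a clear A-rich tail, so other copies were not checked. Orientation stayed unset for 1031 AluS loci. Symbols were matched for 19465 of 19473 genes tested.

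Locus counts were summed per subfamily, or kept per locus where 10 or more in all. Genes and repeats were fitted together over the 17 libraries with edgeR 4.0.16 (R 4.3.3): filterByExpr (minimum count 10, total 15), TMM factors of 0.949 to 1.08, 1 term per group, quasi-likelihood test, Benjamini-Hochberg adjustment over all subfamilies, loci or genes, and a threshold of 0.05. The edgeR fit of genes and loci was tested on simulated counts, drawn without effects shared within a library. Sums and ratios were tested by exact 2-sided permutation over libraries. Intervals and floors of 3 counts cover counting error only. No libraries of a group were duplicates (lowest chi-square per degree of freedom 4.68). Every subfamily was named. So were, in each comparison, the 5 largest rises and falls among called loci without overlap and the 3 list genes with the largest called changes. The 10 loci with most counts and the 10 hosts with most intronic counts in the orientation of the gene were named too. Some genes and sequences under these rules are not reported here. Alternatives were DESeq2 1.42.0 and its size factors, other filters and scalings, covariates, a replicate block, subsets of libraries and leaving out each library.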

Additional observations from a re-analysis of the deposited data

Results flagged for a closer look

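Of 153 groups of libraries examined for AluS sums, subfamilies and named loci, 15 had 1 library far from the others by Dixon's criterion, which chance meets in about 1 group of 20. In 4OHT siNT, library 4-2VM was low for intron AluS (1557 CPM, median of the others 1850), for intron AluS in the orientation of the gene (1178 against 1446 CPM) and for AluSx4 (45.6 against 55.6 CPM). In siSMARCA4, library 2-3V was high for AluSq (96.5 against 80.2 CPM), AluSx4 (89.7 against 74.8 CPM) and the AluSc8 copy downstream of RPLP0P2 (11.9 against 8.53 CPM). These 2 libraries are those whose omission lowered the count of called subfamilies most. Library 4-3V of siSMARCA4 was high for the AluSx1 copy in SLC16A6 (0.953 against 0.331 CPM).

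In DMSO, library 4-3VM was high for the AluSx3 copies in ENSG00000289346 (0.603 against 0.207 CPM) and over RPL39 (7.16 against 3.84 CPM), and 2-2V was low for the AluSx1 copy in TGFBI (0.279 against 0.686 CPM) and high for the AluSp copy in CCDC200 (0.0645 against 0 CPM). At 4 loci that were nearly lost in 4OHT siNT a single library held most or all of the remaining counts: 2-1VM (0.019 CPM) and 2-2VM (0.0868 CPM) for the copies in ENSG00000285218, 4-1VM (0.0212 CPM) for the AluSz copy upstream of BLZF2P and 2-3VM (0.0767 CPM) for the copy in WNK4, each against a median of 0 CPM in the others.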

How the results depend on the processing

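The summed AluS rise with siSMARCA4 (0.40) kept its direction under all 18 alternatives, from 0.35 to 0.43 with 1 library left out. Scaling on repeats alone and the covariates for V or VM and for sparse repeats were not among these 18. The summed rise no longer passed with VM libraries only (0.37) or with libraries of siRNA number 2 (0.46) or 4 (0.34) alone. In each of these subsets the groups still did not overlap, so the unadjusted p was the smallest the test can give there. With 3 against 3 libraries the unadjusted p cannot go below 0.1. The sum with 4OHT (0.03) ran from -0.04 to 0.13 with 1 library left out. The ratio of AluS to AluJ with siSMARCA4 ran from -0.02 to 0.02 and that of AluS to AluY with 4OHT from -0.04 to 0.04, so these have no stable sign.

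The 13 AluS subfamilies called with siSMARCA4 became 0 with TMM factors from repeats alone, with V or VM as a covariate, with sparse repeats far from genes as a covariate and with the libraries of siRNA number 2 or 4 alone. These are edgeR counts with 0, 15, 0, 17 and 5 subfamilies at an unadjusted p under 0.05. With 1 library left out the count was 3 to 16. With 4OHT the count of 0 became 10 with sparse repeats as a covariate. The 157 loci called with siSMARCA4 became 2 with sparse repeats as a covariate, 20 and 0 (363 at an unadjusted p under 0.05) with siRNA number 2 or 4 alone, 92 with no filter on low counts and 95 with a total count minimum of 50, and 50 to 193 with 1 library left out. The 743 loci called with 4OHT became 413 with siRNA number 4 alone, 1153 with no filter (681 higher, 472 lower) and 1129 with the minimum of 50 (734 higher, 395 lower). Fewer libraries or more features tested are part of the subsets and filters, and the cause was not tested for the others.

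Replicate numbers are shared between groups, but same-labelled libraries did not deviate together (r from -0.15 to 0.30 in 3 pairs of siNT and siSMARCA4, and from -0.28 to 0.09 in 3 pairs of DMSO and 4OHT). With a replicate block 8 subfamilies and 96 loci were called with siSMARCA4. Depth limits single loci: 0.449% of AluS loci could be tested.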

Other observations

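Some genes held several called AluS copies in their introns, in the orientation of the gene. These genes were picked after their values were seen, as those with at least 3 copies called higher with siSMARCA4 or at least 5 with 4OHT. With siSMARCA4 they were TXNRD1, PNPLA3, NALF1 and ENSG00000284461 with 4 copies each and the noncoding MAP4K3-DT with 3. With 4OHT they were ANGPTL4, an inhibitor of lipoprotein lipase, with 7, and ADAM19, a membrane metalloprotease, C2CD2, the histone gene H2AC6 and PLAT with 5 each. Of all AluS loci tested, 5.18% were called with siSMARCA4 and 24.5% with 4OHT. The number of copies tested is given here only for TXNRD1, so the other genes cannot be set against these shares.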
